A study of Arabidopsis thaliana with 22 samples.

Results

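The plastid genome of Arabidopsis thaliana encodes a core set of photosynthesis proteins, and 43 of these genes are described here across 22 Affymetrix ATH1 arrays. The genes were chosen by name: lower-case symbols starting with psa, psb, pet or ndh, together with rbcL and the atp genes of the plastid ATP synthase, each read by 1 probe set that names a single gene. They comprise 5 photosystem I genes, 15 photosystem II genes, 6 cytochrome b6f genes, 6 ATP synthase genes, 10 NDH genes and rbcL, out of 13350 genes with such a probe set and 22746 probe sets tested in all. By name the rule reached 44 symbols; the probe set for ndhB names 2 gene copies and was kept apart. RefSeq's gene table (assembly TAIR10.1) places all 43 symbols on the plastid genome.

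The arrays measured RNA from whole seedlings of the Ler background at 4 days of age. Wild type was compared with the phyABDE quadruple mutant, in which phytochrome C is the only phytochrome left, and with the phyABCDE quintuple mutant, which has no phytochrome. Seedlings of every group received cold imbibition and a white light pulse to start germination, and were then kept in darkness (D), exposed to red light of 50 µmol m-2 s-1 from then on (R50), or grown in darkness and given 2 h of the same red light (DR2h). Each mutant had 3 arrays in D, 3 in R50 and 2 in DR2h. Wild type had 4 arrays in D and 2 in R50, and no DR2h group is compared here for it. The probe sets of the phytochrome genes carry no name in the annotation used here, so the genotypes were not checked by their own transcripts. The alleles behind each mutant are not named in the sample descriptions.

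The products of these genes are the reaction centre and core subunits of the photosystems, the cytochrome b6f complex that carries electrons between them, the proton-driven ATP synthase, the NDH complex of cyclic electron flow, and the large subunit of RuBisCO. In every one of these complexes the plastid-encoded proteins join subunits encoded in the nucleus. Most plastid genes are transcribed as groups on shared precursor RNAs that are later cut into shorter messages, largely by a plastid-encoded RNA polymerase. Plastid messages mostly lack the long poly(A) tails of nuclear messages, and short tails mark them for decay, whereas the labelling reactions used for these arrays start from oligo-dT.

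Labelling has to be described before any level is compared. According to the series description, wild-type D replicates 2 to 4 and both wild-type R50 arrays were labelled with the Affymetrix One-cycle kit in an earlier study, and the other 17 arrays, among them wild-type D replicate 1, with the 3' IVT Express kit. The individual sample records name the newer kit for all 22 arrays, and the series description was followed here. All values below are log2 of the deposited intensity, and differences are log2 differences with their standard error from 1 limma fit over all 22 arrays with the kit as a term. A gene is called higher or lower at an adjusted p under 0.05, Benjamini-Hochberg over all 22746 probe sets of the comparison. Because of the kit term, only the 5 One-cycle arrays inform the red light response of wild type, and each comparison of a mutant with dark wild type rests on a single wild-type array, D replicate 1.

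The plastid genes separated that wild-type array from the other dark wild-type arrays by more than the spread among those other arrays. Within phyABCDE in D, where all arrays share a kit, replicate 1 also read below the others, by a median of -1.28. The median of the 43 genes was 7.03 on D replicate 1, and 9.81, 9.93 and 9.31 on D replicates 2, 3 and 4. For psaA, a reaction centre protein of photosystem I, D replicate 1 read 4.18 and the others 10.85, 10.72 and 9.41. For psaC, the iron-sulphur protein of the same complex, D replicate 1 read 3.90 and the others 8.59, 8.85 and 8.67. In both genes the single array lay below every other dark wild-type array by several log2 units. In the fit 17 of the 43 genes were lower on the IVT Express array and none was higher, while 6.68% of all probe sets were called in this comparison and 4.07% were called lower. The median difference of the 43 genes was -1.26 and that of all probe sets 0.03.

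Since 1 side of this comparison is a single array, its standard errors and p-values take the spread from the other groups and assume that this array varies like them. The size of the difference varied widely among genes of 1 complex. It was -6.14 ± 0.47 for psaA (adjusted p = 1.49e-07), a 70.75-fold lower intensity, and -1.02 for psaB, its partner in the reaction centre, which follows it on the same precursor RNA. The other genes called lower were psaC (-4.80), the peripheral-stalk gene atpF (-4.66), psbB for the antenna protein CP47 (-4.25), ndhD (-4.17), petL (-3.78), the c-ring gene atpH (-3.58), atpA for the alpha subunit (-3.54), psbT (-3.35), ndhG (-3.26), ndhE (-3.18), psbH (-3.17), ndhH (-3.11), psbD for the reaction centre protein D2 (-2.55), psbA for D1 (-2.46), petG (-1.65) and petB for cytochrome b6 (-1.52). Differences above 0 were fitted for ndhC (0.13), rbcL (0.19) and psbN (0.78), none of them called. Across the 43 genes the difference had a Pearson correlation of -0.04 with the mean level on the One-cycle dark arrays, given as a description since the genes share the same arrays.

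Other transcripts were measured in the same comparison. Of 26 plastid genes for ribosomal proteins, RNA polymerase and other functions, 9 were lower and none higher, with a median of -0.89; the highest-reading of these, rps4 (-0.55), clpP (-0.86) and rps19 (-0.60), were not called. Of 11 mitochondrion-encoded genes 1 was lower, with a median of -0.36. Among 7 nuclear genes for photosystem and ATP synthase subunits none was called, 0 of 7 had an unadjusted p under 0.05, and their median was 0.08. The kit, the earlier study and the seedling sample of that single array cannot be told apart, and the share of each in the difference was not tested. The name kit difference is used below only as a label for it. A limit follows for every comparison of levels between wild type and mutants. The group means plotted for wild-type D on the One-cycle kit and for the mutants differ in kit and study as well as in genotype.

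**Figure D1:**
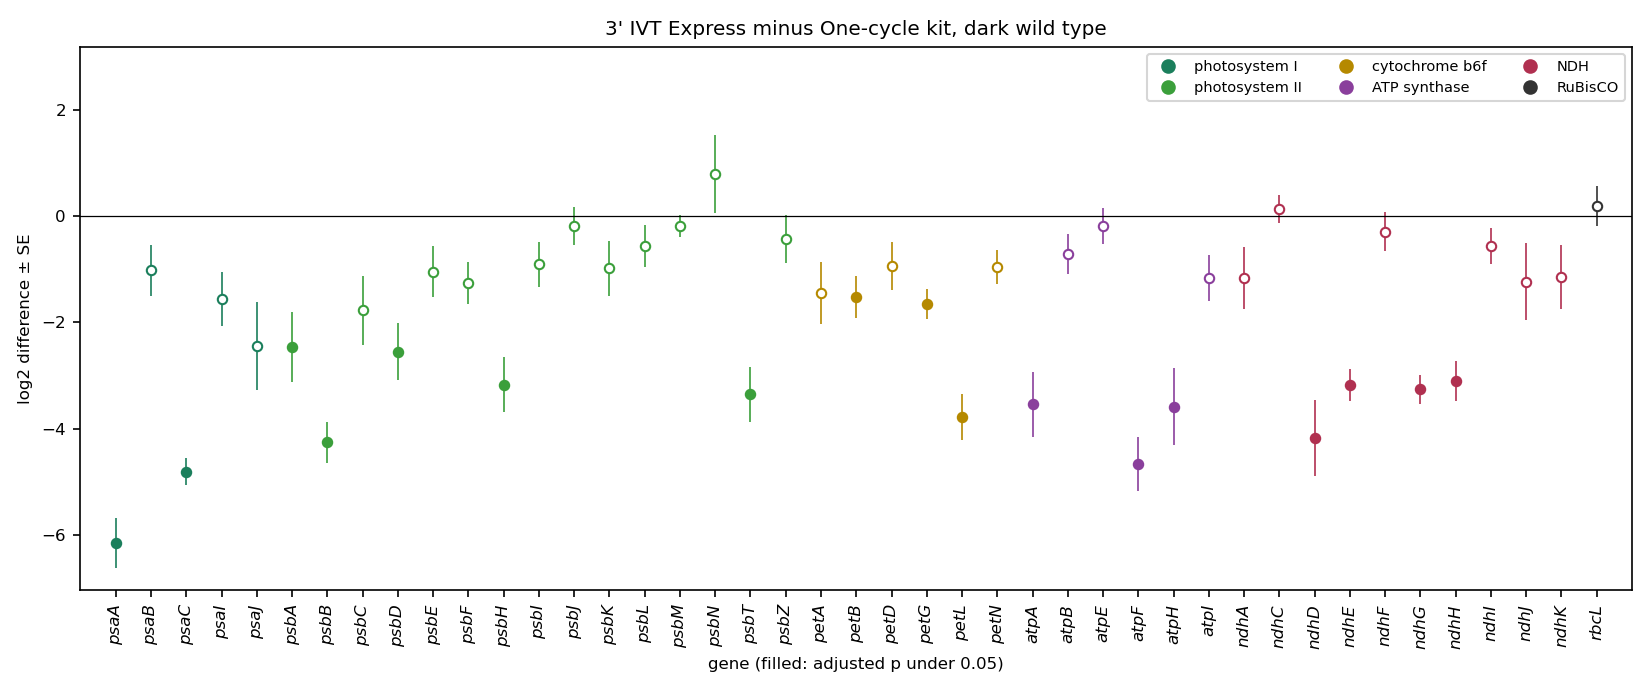
Log2 difference (± SE) between wild-type dark replicate 1 (3' IVT Express kit) and wild-type dark replicates 2 to 4 (One-cycle kit) for each of the 43 genes, coloured by complex, with filled points for adjusted p under 0.05. The 17 filled points all lie below 0, from petB at -1.52 to psaA at -6.14, while psaB lies at -1.02 and rbcL at 0.19.

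Group levels were highest on the One-cycle wild-type arrays and lowest in phyABCDE in R50. The mean of the per-array medians was 9.69 ± 0.33 (SD, n = 3) for wild-type D on the One-cycle kit and 9.56 ± 0.17 (SD, n = 2) for wild-type R50. In phyABDE it was 7.81 ± 0.39 (SD, n = 3) in D, 8.10 ± 0.03 (SD, n = 2) in DR2h and 8.15 ± 0.25 (SD, n = 3) in R50. In phyABCDE it was 7.11 ± 1.11 (SD, n = 3) in D, 7.47 ± 0.21 (SD, n = 2) in DR2h and 6.97 ± 0.29 (SD, n = 3) in R50. The 3 light conditions of phyABDE overlapped in their array medians, and the arrays of phyABDE in R50 and DR2h all lay above those of phyABCDE in the same light. In whole seedlings, a smaller share of cells that hold the transcript and less transcript per cell cannot be told apart.

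The wide spread of phyABCDE in D came from replicate 1. All 43 genes read lower there than on both other dark arrays of that mutant, with a median deviation of -1.28 and a range of -2.94 to -0.34. Over all probe sets 8401 of 22746 read lower than on both others, with a median deviation of -0.01. The deviation had a median of -1.54 for the other plastid genes (25 of 26 below 0) and -0.20 for the mitochondrion-encoded genes. The difference between 3' and 5' actin probe sets, a sign of RNA integrity, was 3.54 on this array and 3.26 to 3.80 in its group. On phyABCDE R50 replicate 1, the array with the next lowest median, 29 of 43 genes read below the mean of the other R50 arrays, with a median of -0.12. Results that use phyABCDE in D or R50 are therefore also given without these 2 arrays. These 2 arrays were chosen after seeing the data, by the low values of these same genes. Results without them are therefore no independent support.

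**Figure D2:**
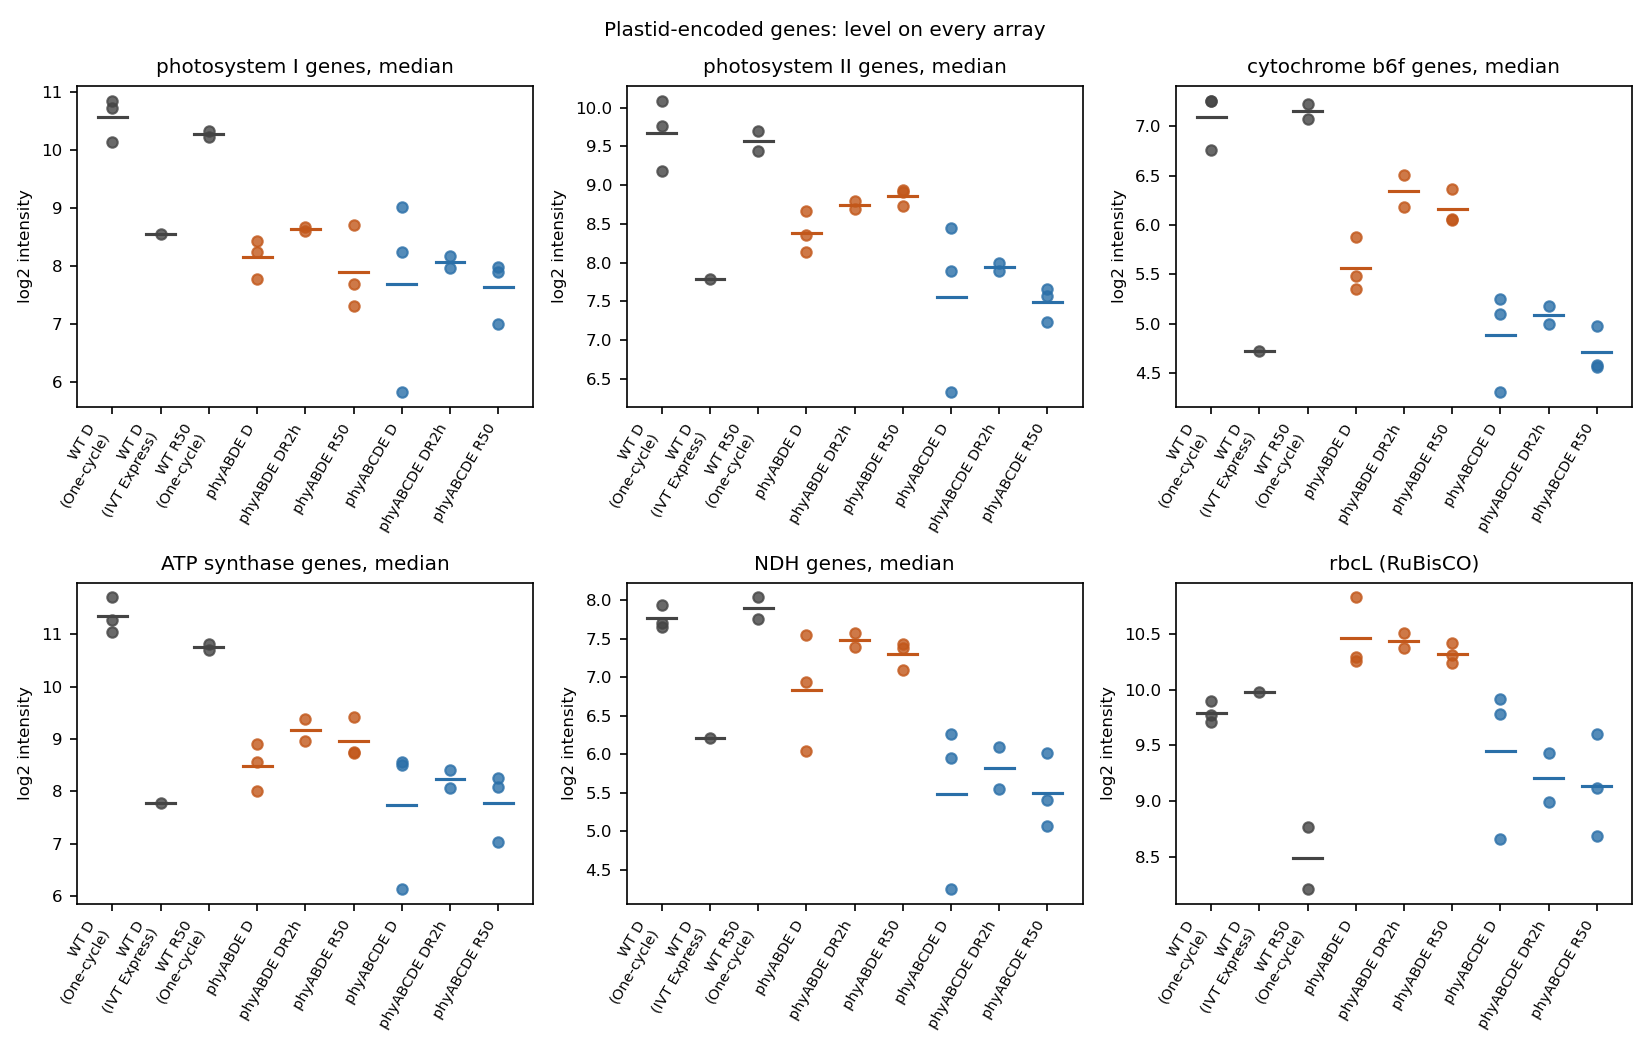
Log2 intensity on every array by group: the median of the photosystem I, photosystem II, cytochrome b6f, ATP synthase and NDH genes, and rbcL alone; each point is 1 array and each bar the group mean, and the vertical axes differ between panels. Apart from rbcL, the One-cycle wild-type arrays lie above the IVT Express wild-type array in every panel, and phyABCDE dark replicate 1 is the lowest dark array of its genotype.

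In wild type, few of these genes were called as changed in continuous red light, and in both directions. Of 43 genes 5 rose and 1 fell, while 27.5% of all probe sets were called in the same comparison, made up of 13.7% called higher and 13.8% called lower. The genes that rose were psbE, psbL and psbJ of photosystem II and petD and petG of the cytochrome complex; the gene that fell was rbcL. The median difference was -0.05 over the 43 genes and -0.02 over all probe sets, with 21 genes above 0. The arrays of R50 lay wholly above those of D on the One-cycle kit for 12 genes and wholly below for 9, where 22.2% and 24.8% of all probe sets did so.

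The falling gene was the one for the large subunit of RuBisCO, the carbon-fixing enzyme. On the One-cycle arrays rbcL read 9.70, 9.89 and 9.77 in D and 8.76 and 8.21 in R50, and D replicate 1 on the other kit read 9.98. Both red arrays lay below all 4 dark arrays. The fitted difference was -1.31 ± 0.30 (adjusted p = 0.00254), a 2.47-fold lower intensity. It was -1.03 with an adjusted p of 0.0617 when R50 replicate 2 was left out.

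Rises were seen in 1 co-transcribed group of small photosystem II genes. The psbE and psbF products bind the haem of cytochrome b559, and psbL and psbJ, small membrane subunits of the same complex, follow them on the same RNA. For psbE, D replicates 2 to 4 read 9.89, 9.40 and 10.27 and the R50 arrays 10.78 and 11.25. For psbL the dark arrays read 7.86, 7.30 and 7.63 and the red arrays 8.35 and 8.74. In both genes every red array lay above every dark array. The differences were 1.16 ± 0.37 for psbE (adjusted p = 0.0247), 0.95 ± 0.31 for psbL (adjusted p = 0.0288), 0.82 ± 0.28 for psbJ (adjusted p = 0.0339) and 0.78 ± 0.31 for psbF, which was not called (adjusted p = 0.0713). Within this group the 4 values spanned 0.38.

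The cytochrome complex held the other rises. For petD, which encodes subunit IV, the One-cycle dark arrays read 3.62, 3.94 and 5.23 and the red arrays 5.65 and 5.72, all of them low signals. The red arrays lay above the dark arrays, and 1 of the dark arrays lay much closer to them than the others. The difference was 1.42 ± 0.35 (adjusted p = 0.00468) and kept its call in each of the 11 alternatives run for it. For petG, a small subunit, the difference was 0.63 ± 0.22 (adjusted p = 0.0415). The neighbours of petD on the psbB precursor RNA did not share its value: petB stood at 0.02, psbH at 0.10, psbB at 0.28 and psbT at 0.70, none of them called.

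The largest fitted values below 0 after rbcL were psbC, for the antenna protein CP43, and ndhH. For psbC the One-cycle dark arrays read 9.76, 10.20 and 8.71 and the red arrays 8.74 and 8.61; the groups overlapped, and the difference was -0.88 ± 0.51 (adjusted p = 0.233). For ndhH they read 7.74, 6.57 and 6.64 in D and 5.98 and 6.43 in R50; the red arrays lay below, and the difference was -0.78 ± 0.30 (adjusted p = 0.063). All 5 photosystem I genes had values below 0, from -0.63 to -0.15, and so did 5 of 6 ATP synthase genes, none of them called. The 10 NDH genes ranged from -0.78 to 0.53 with no call. The probe set of ndhB, outside the 43 genes because it names 2 copies, read 3.49, 3.68 and 5.25 in D and 6.15 and 6.77 in R50, a rise of 2.32 ± 0.34 (adjusted p = 2.5e-05).

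**Figure D3:**
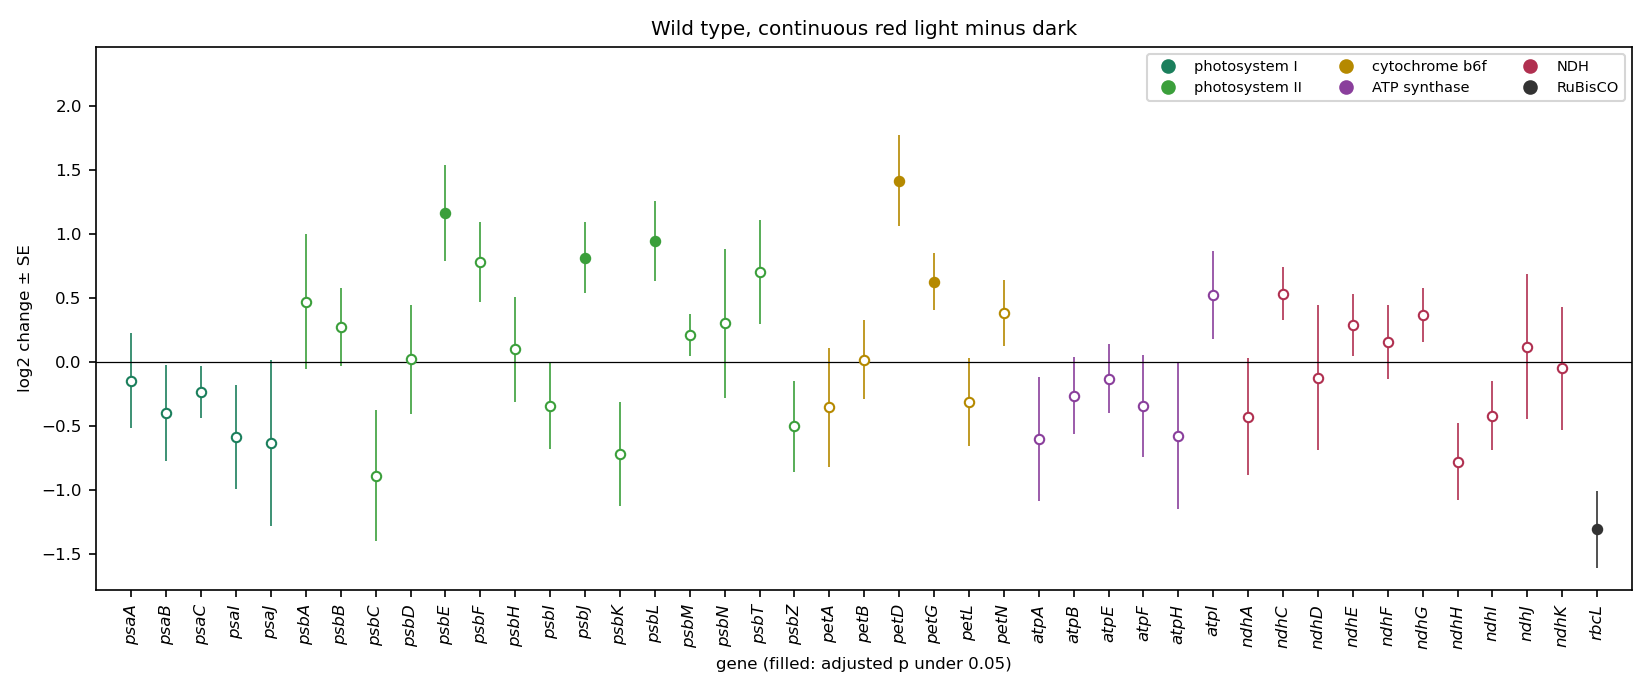
Log2 change (± SE) from darkness to continuous red light in wild type for the 43 genes, from the 5 One-cycle arrays through the fit, with filled points for adjusted p under 0.05. Filled points above 0 are petD (1.42), psbE (1.16), psbL (0.95), psbJ (0.82) and petG (0.63); the filled point below 0 is rbcL (-1.31).

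The wild-type counts depended on single arrays. Without R50 replicate 2 only 1 of the 43 genes was called, and 3 were called without R50 replicate 1 or without D replicate 3. When replicate numbers entered as a block there were 2 calls, petD higher and 1 gene lower, though nothing in the sample descriptions says that the numbers pair wild-type seedlings. With only the 5 One-cycle arrays and D replicate 1 in the fit, 7 were called higher and 4 lower. The share of all probe sets called in these alternative fits is not given here. Other genes of the chloroplast machinery gave other values in the same comparison. Of 7 nuclear photosystem and ATP synthase genes 6 rose, with a median of 1.38; among them PSBY of photosystem II rose by 1.48, PSAE-1 of photosystem I by 1.68 and ATPC1, the gamma subunit of the ATP synthase, by 1.24. Of 6 nuclear genes for factors linked to the NDH complex (PIFI and genes named CRR) all 6 rose, with a median of 0.82. That list held no gene named as an NDH subunit. Of the 26 other plastid genes 2 rose and 3 fell, with a median of -0.51. The summed intensity of 9 green shoot markers was 12790 to 15580 on the One-cycle dark arrays and 41010 to 42930 on the red arrays, and its part in the values of the plastid genes was not tested. These markers share genes with the nuclear photosystem list, PSBY and PSAE-1 among them.

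In phyABDE no plastid gene was called under continuous red light, where 0.145% of all probe sets were. Of the 43 genes 37 had a value above 0, and the median was 0.38 against 0.01 over all probe sets. By unadjusted p under 0.05, 10 of the 43 genes were higher and none lower in the limma fit, where 11.6% of all probe sets passed that threshold in either direction. The arrays of R50 lay wholly above those of D for 11 genes and below for none, where 10.8% of all probe sets lay above and 7.8% below. The median 95% interval of a gene reached 0.66 to either side, so differences of the size of the median could not be resolved gene by gene.

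The genes with the largest values in phyABDE came from the NDH complex and photosystem II. For ndhD, a membrane subunit of the NDH complex, the arrays read 8.04, 5.46 and 6.81 in D, 7.67 and 7.87 in DR2h, and 8.67, 7.57 and 7.69 in R50. The dark arrays were scattered and overlapped with the red ones, and the R50 difference was 1.21 ± 0.51 (adjusted p = 0.359). For psbB the arrays read 6.06, 5.04 and 5.29 in D, 6.08 and 6.55 in DR2h, and 6.64, 6.08 and 6.77 in R50. Here the R50 and DR2h arrays all lay above the dark arrays, and the R50 difference was 1.04 ± 0.27 (adjusted p = 0.137). For psbD they read 7.01, 5.80 and 6.38 in D and 7.54, 6.91 and 7.32 in R50, with overlap and a difference of 0.86 ± 0.38 (adjusted p = 0.395).

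At the other end of the phyABDE values stood ndhA, psaJ and psbF. For ndhA, the D arrays read 10.50, 10.25 and 9.93 and the R50 arrays 10.10, 10.71 and 8.72, a difference of -0.39 ± 0.41. For psaJ, a small subunit of photosystem I, they read 8.44, 8.24 and 7.78 in D and 7.70, 8.71 and 7.31 in R50, a difference of -0.24 ± 0.58. For psbF they read 10.14, 9.97 and 9.67 in D and 9.67, 10.22 and 9.43 in R50, a difference of -0.16 ± 0.28. In these 3 genes the groups overlapped and no difference exceeded its standard error. All 6 cytochrome genes (0.29 to 0.77) and all 6 ATP synthase genes (0.16 to 0.84) had values above 0, as did 13 of 15 photosystem II genes.

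In phyABCDE the values lay on both sides of 0. No gene was called under continuous red light, where 0.00879% of all probe sets were, and only psbJ passed an unadjusted p of 0.05, where 5.68% of all probe sets did, with -0.55 ± 0.25 (adjusted p = 0.864 in the limma fit). Of 43 genes 12 had a value above 0, with a median of -0.11. The R50 arrays lay wholly below the D arrays for 1 gene, ndhF, and above for none, where 4.25% and 6.08% of all probe sets did so. For ndhD the D arrays read 3.99, 5.90 and 5.07 and the R50 arrays 5.20, 4.78 and 6.04, a difference of 0.36 ± 0.51. For atpF they read 3.70, 5.00 and 5.07 in D and 3.89, 5.05 and 5.19 in R50, a difference of 0.12 ± 0.36. For psaJ they read 5.83, 9.29 and 8.25 in D and 7.96, 7.01 and 8.76 in R50, a difference of 0.12 ± 0.58. These 3 genes had the largest values above 0 in this mutant, and in each the D and R50 arrays overlapped.

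The values furthest below 0 in phyABCDE were those of psbJ, ndhA and psbD. For psbJ the D arrays read 8.52, 9.73 and 9.50 and the R50 arrays 8.63, 9.04 and 8.44. For ndhA they read 9.68, 10.80 and 11.11 in D and 10.08, 10.50 and 9.48 in R50, a difference of -0.51 ± 0.41. For psbD they read 4.71, 6.53 and 6.77 in D and 5.46, 5.49 and 5.58 in R50, a difference of -0.49 ± 0.38. In all 3 genes the first dark array was far below the other dark arrays. Leaving out that array, chosen for its low values in these genes, by itself lowers each difference. Without it and R50 replicate 1 the median over the 43 genes was -0.54, against -0.002 over all probe sets, and 42 genes had values below 0. Again no gene was called, and 12 genes had an unadjusted p under 0.05 in the limma fit. The share of all probe sets at that p in this setting is not given here.

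After 2 h of red light no plastid gene was called in either mutant, where 0.0044% of all probe sets were called in phyABDE and 0.0176% in phyABCDE. The latter share is made up of 0.0132% of all probe sets called higher and 0.0044% called lower. In phyABDE 33 of 43 genes had a value above 0, the median was 0.30, and 8 genes were higher by unadjusted p under 0.05 in the limma fit, where 4.16% of all probe sets passed in either direction. Among these were petG (1.10 ± 0.22, adjusted p = 0.234), psbD (1.26 ± 0.43), psbT (1.21 ± 0.41) and atpF (1.16 ± 0.40). The petG arrays read 4.64, 4.42 and 4.16 in D and 5.44 and 5.56 in DR2h, without overlap. In all, 17 genes lay wholly above their dark arrays and 2 below, where 10.3% and 11.2% of all probe sets did so. In phyABCDE 24 genes had a value above 0 with a median of 0.04, and only ndhG, at -0.51 ± 0.21, had an unadjusted p under 0.05, where 6.21% of all probe sets did. That median was -0.38 without D replicate 1. The 2 light treatments share their dark arrays within each mutant.

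The difference between the red responses of the mutants was tested directly and gave no call among the 43 genes or among all probe sets (0%). Of 43 genes 41 had a larger value in phyABDE, with a median difference of 0.55 against 0.00 over all probe sets, and 10 had an unadjusted p under 0.05, beside 899 of all 22746 probe sets. The 2 low phyABCDE arrays were chosen by the values of these same genes. Leaving them out gave a median of 0.87, against 0.01 over all probe sets, with 43 of 43 genes above 0. In that setting 27 genes had an unadjusted p under 0.05 in the limma fit, and again none was called. The share of all probe sets at that p in this setting is not given here. Against phyABDE the wild-type response differed in 1 gene, psaC, by -0.95 ± 0.27 (adjusted p = 0.0231), where 13.6% of all probe sets were called and 6.65% were called lower. Against phyABCDE it differed in 4 genes, all higher in wild type, where 17.2% were called, 8.27% higher and 8.9% lower: petD (1.80 ± 0.47, adjusted p = 0.0114), psbE (1.49 ± 0.50, adjusted p = 0.0473), psbJ (1.37 ± 0.37, adjusted p = 0.0143) and petG (0.96 ± 0.30, adjusted p = 0.0317). With the replicate number as a block only petD kept its call, at 2.48 (adjusted p = 0.00157 in limma). Under that block psaC stood at -1.02 (adjusted p = 0.116), psbE at 1.68 (adjusted p = 0.109), psbJ at 1.32 (adjusted p = 0.0978) and petG at 1.18 (adjusted p = 0.0959). The psaC difference turned to 0.25 when the kit term was left out. Both comparisons share the wild-type arrays. The wild-type and mutant responses were also measured with different kits and in different studies, so kit, study and genotype cannot be told apart in them. Without phyABCDE D replicate 1, 10 genes were called against phyABCDE, and 1 was called without wild-type R50 replicate 2.

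Among groups labelled with the same kit, the comparison of the mutants under continuous red light held the most calls. Under continuous red light 20 of 43 genes were higher in phyABDE than in phyABCDE and none was lower, where 3.97% of all probe sets were called, with 1.69% higher and 2.28% lower. The median difference was 1.10 against 0.01 over all probe sets, and 39 of 43 genes had a value above 0. The 3 phyABDE arrays lay wholly above the 3 phyABCDE arrays for 35 genes and below for none, where 12.2% and 11% of all probe sets did so. All 6 groups held at least 1 called gene: 2 of 5 in photosystem I, 6 of 15 in photosystem II, 5 of 6 in the cytochrome complex, 2 of 6 in the ATP synthase, 4 of 10 in the NDH complex, and rbcL.

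Genes of the NDH complex covered the whole range of this difference. For ndhE, a membrane subunit, the R50 arrays read 5.36, 5.36 and 5.78 in phyABDE and 3.59, 3.81 and 3.60 in phyABCDE. All 3 phyABDE arrays lay well above the phyABCDE arrays, and the difference was 1.83 ± 0.21 (adjusted p = 3.39e-05). For ndhD, whose R50 arrays are given above, it was 2.63 ± 0.51 (adjusted p = 0.00517), the largest of the 43 genes. By contrast ndhI, a peripheral subunit of the complex, read 11.70, 11.93 and 11.14 in phyABDE and 11.55, 11.98 and 11.34 in phyABCDE. These groups overlapped, with a difference of -0.04 ± 0.24, and ndhA (-0.18) and ndhH (0.02) were also near 0.

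In photosystem II 6 of 15 genes were called, among them the antenna genes psbB and psbC and the reaction centre gene psbD; the other reaction centre gene, psbA, stood at 1.66 ± 0.47 and was not called (adjusted p = 0.0542). For psbB the R50 arrays read 4.53, 4.66 and 4.23 in phyABCDE, below the phyABDE values of 6.64, 6.08 and 6.77, and the difference was 2.02 ± 0.27 (adjusted p = 0.00019). The reaction centre gene psbD stood at 1.75 and its neighbour psbC at 1.66, and their coding regions overlap in the RefSeq table, so signal from shared sequence cannot be assigned to 1 of them. Also called were psbT at 1.69, psbH at 1.52 and psbN at 2.36; psbN lies on the opposite strand of the psbB group and encodes an assembly factor. The photosystem II gene with the highest intensity, psbM for a small subunit, read 12.18, 12.68 and 12.50 in phyABDE and 11.64, 12.10 and 12.09 in phyABCDE, a difference of 0.51 that was not called.

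In photosystem I, psaA stood at 1.24 ± 0.33 (adjusted p = 0.0417) and psaC at 1.10 ± 0.18 (adjusted p = 0.00148). The highest-reading gene of the complex, psaB, read 11.34, 11.68 and 11.60 in phyABDE and 10.13, 10.79 and 10.29 in phyABCDE; the groups did not overlap, and the difference of 1.14 was not called. In the cytochrome complex petB read 11.81, 11.97 and 11.75 in phyABDE and 10.79, 11.02 and 10.64 in phyABCDE, a difference of 1.03 ± 0.28 (adjusted p = 0.0424). Also called there were petL (2.02), petA for cytochrome f (1.51), petG (1.32) and petN (0.88). In the ATP synthase atpE, the epsilon subunit, read 12.92, 13.00 and 12.89 in phyABDE and 11.79, 12.31 and 12.07 in phyABCDE, a difference of 0.88 ± 0.24 (adjusted p = 0.0457), and atpF stood at 1.43. For rbcL the phyABDE arrays read 10.42, 10.24 and 10.31 and the phyABCDE arrays 9.11, 9.60 and 8.68, again without overlap, with a difference of 1.19 ± 0.27 (adjusted p = 0.016).

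The count of 20 was smaller with fewer arrays. Leaving out 1 array of either group gave 7 to 16 called genes, all higher in phyABDE, with the lowest count without phyABDE R50 replicate 3; it was 9 without phyABDE R50 replicate 2, 12 without phyABCDE R50 replicate 1 or 3, and 13 without replicate 2. The genes ndhD, ndhE, ndhG, petG, petL, psaC and psbB were called whichever array was left out. All of them were low signals in phyABCDE in R50, with means from 3.38 for petG to 5.34 for ndhD. The median of all probe sets on those arrays was 5.47 to 5.49. With the 2 low phyABCDE arrays left out 24 genes were called, with a median difference of 1.00 against 0.03 over all probe sets. Of these arrays the dark one is not part of this comparison and enters it only through the shared estimate of spread. Without R50 replicate 1 alone the count was 12, so the larger count is not a larger difference. The share of all probe sets called in these settings is not given here. With the kit term removed, 4 were called at the same differences, since the 2 kits then widen the spread of wild-type D.

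In the other conditions fewer genes were called. In darkness only ndhE was called, at 0.90 ± 0.21 (adjusted p = 0.0268), where 2.33% of all probe sets were called, with 0.98% higher and 1.35% lower; 35 of 43 genes had a value above 0, the median was 0.60, and 18 genes were higher by unadjusted p under 0.05, where 13.2% of all probe sets passed in either direction. The arrays lay wholly apart with phyABDE above for 9 genes and below for none, where 8.53% and 9.1% of all probe sets did so. That median was 0.13 with no call without the low dark phyABCDE array. After 2 h of red light 7 genes were higher and none lower, where 1.2% of all probe sets were called, with 0.563% higher and 0.642% lower: psbT (2.12), ndhE (2.03), psbB (1.84), petL (1.71), petG (1.68), psaC (1.23) and ndhG (1.20). With 2 arrays a group, leaving out 1 gave 2 to 4 calls, and ndhE and petG were called each time. The 4 arrays of this comparison did not overlap for 35 genes with phyABDE above and 3 with it below, where 24.4% and 22.4% of all probe sets did so.

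**Figure D4:**
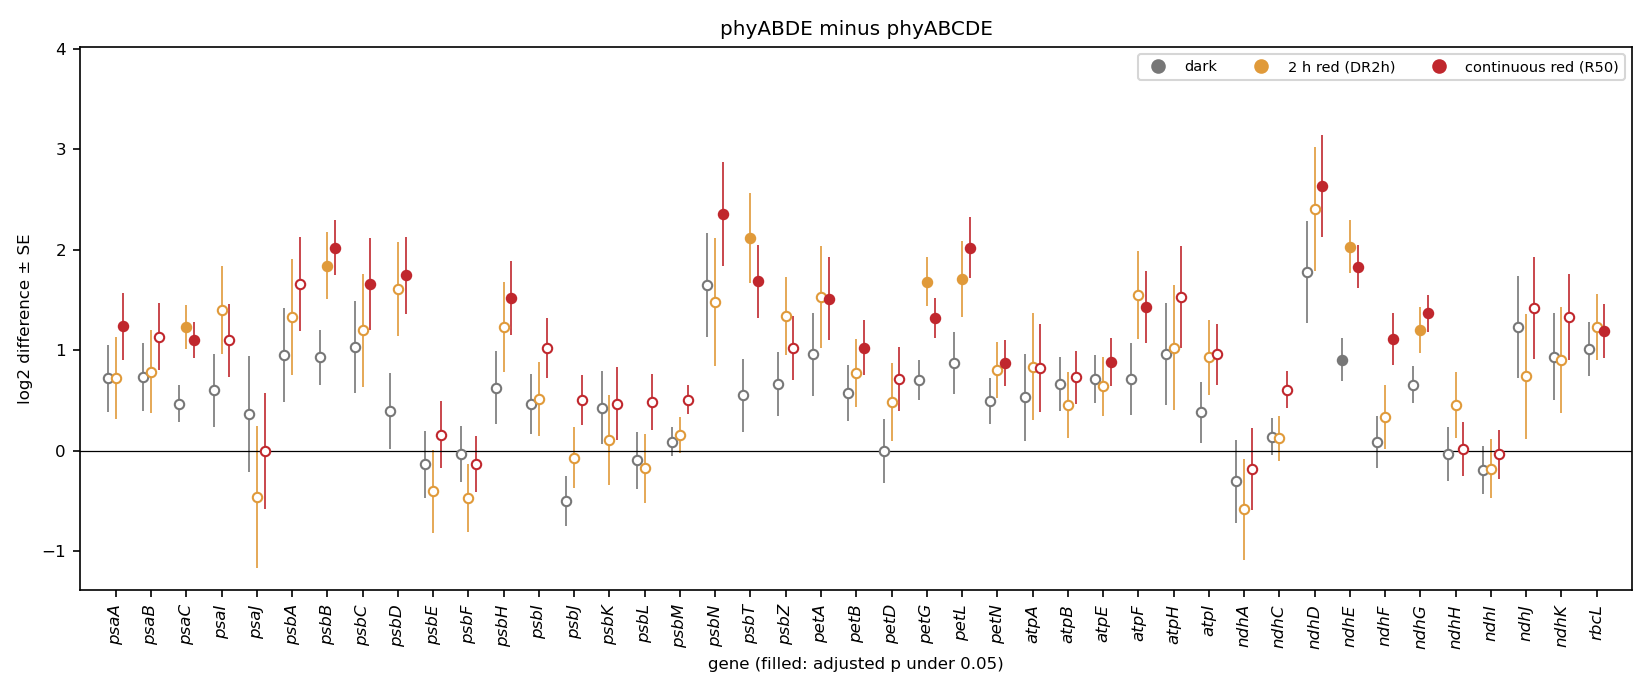
Log2 difference (± SE) between phyABDE and phyABCDE for the 43 genes in darkness, after 2 h of red light and in continuous red light, all with the IVT Express kit, with filled points for adjusted p under 0.05. Filled points number 1, 7 and 20 in the 3 conditions and all lie above 0; ndhA, ndhI and psbF stay near or below 0.

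Seed and embryo transcripts differed between the mutants as well. The summed intensity of 5 such markers was 5735 to 7792 in phyABCDE and 1119 to 3764 in phyABDE in R50, 8165 to 9618 and 1551 to 5468 in D, and 6811 to 9048 and 4901 to 4938 in DR2h. In R50 all 5 had values below 0 in phyABDE relative to phyABCDE, with a median of -1.61, 4 of them at an unadjusted p under 0.05 and none called. Of 9 green shoot markers 2 were higher in phyABDE, with sums of 16960 to 22550 against 13960 to 15700. Summed root markers (20 to 30.16) and stomatal markers (75.03 to 94.34) overlapped between the mutants in R50. The part of these cell type and stage markers in the difference of the plastid genes was not tested. Of the 26 other plastid genes 5 were higher and none lower in R50, with a median of 0.88, and of the 11 mitochondrion-encoded genes none was called or had an unadjusted p under 0.05, with a median of -0.05. Of the nuclear photosystem and ATP synthase genes 1 of 7 was higher, with a median of 0.46. Most of these genes, PSBY and PSAE-1 among them, are also green shoot markers, so the 2 lists are not separate observations.

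Genes of 1 precursor RNA did not always share a value. In the psbE group the difference between the mutants in R50 ran from -0.13 to 0.51, with no call, although 3 of its 4 genes rose in wild type. In the psbB group it decreased along the transcript order, from 2.02 for psbB over 1.69 for psbT, 1.52 for psbH and 1.03 for petB to 0.71 for petD. In the group that starts with ndhH it was near 0 for ndhH, ndhA and ndhI and 1.37, 1.83, 1.10 and 2.63 for ndhG, ndhE, psaC and ndhD. The kit difference, in which wild-type D replicate 1 alone stands against arrays of an earlier study, also shrank along the psbB group. It ran from -4.25 for psbB over -3.35 for psbT, -3.17 for psbH and -1.52 for petB to -0.94 for petD. In the ndhH group it was -1.17 for ndhA and -0.57 for ndhI against -4.80 for psaC. There ndhH, near 0 between the mutants, had a kit difference of -3.11, close to ndhE (-3.18) and ndhG (-3.26). Over the 43 genes the kit difference and the mutant difference in R50 had a Pearson correlation of -0.37, and the mutant difference had one of -0.50 with the mean level over phyABCDE arrays, which share the subtracted values; both are descriptions across genes of the same arrays. The steps between neighbouring genes of a group were not tested. In phyABCDE in R50, psbT and petD were low signals, with means of 3.00 and 3.19. Values of further co-transcribed groups were computed and are not listed here. Where the probes of each set lie along a transcript was not analysed here.

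**Figure D5:**
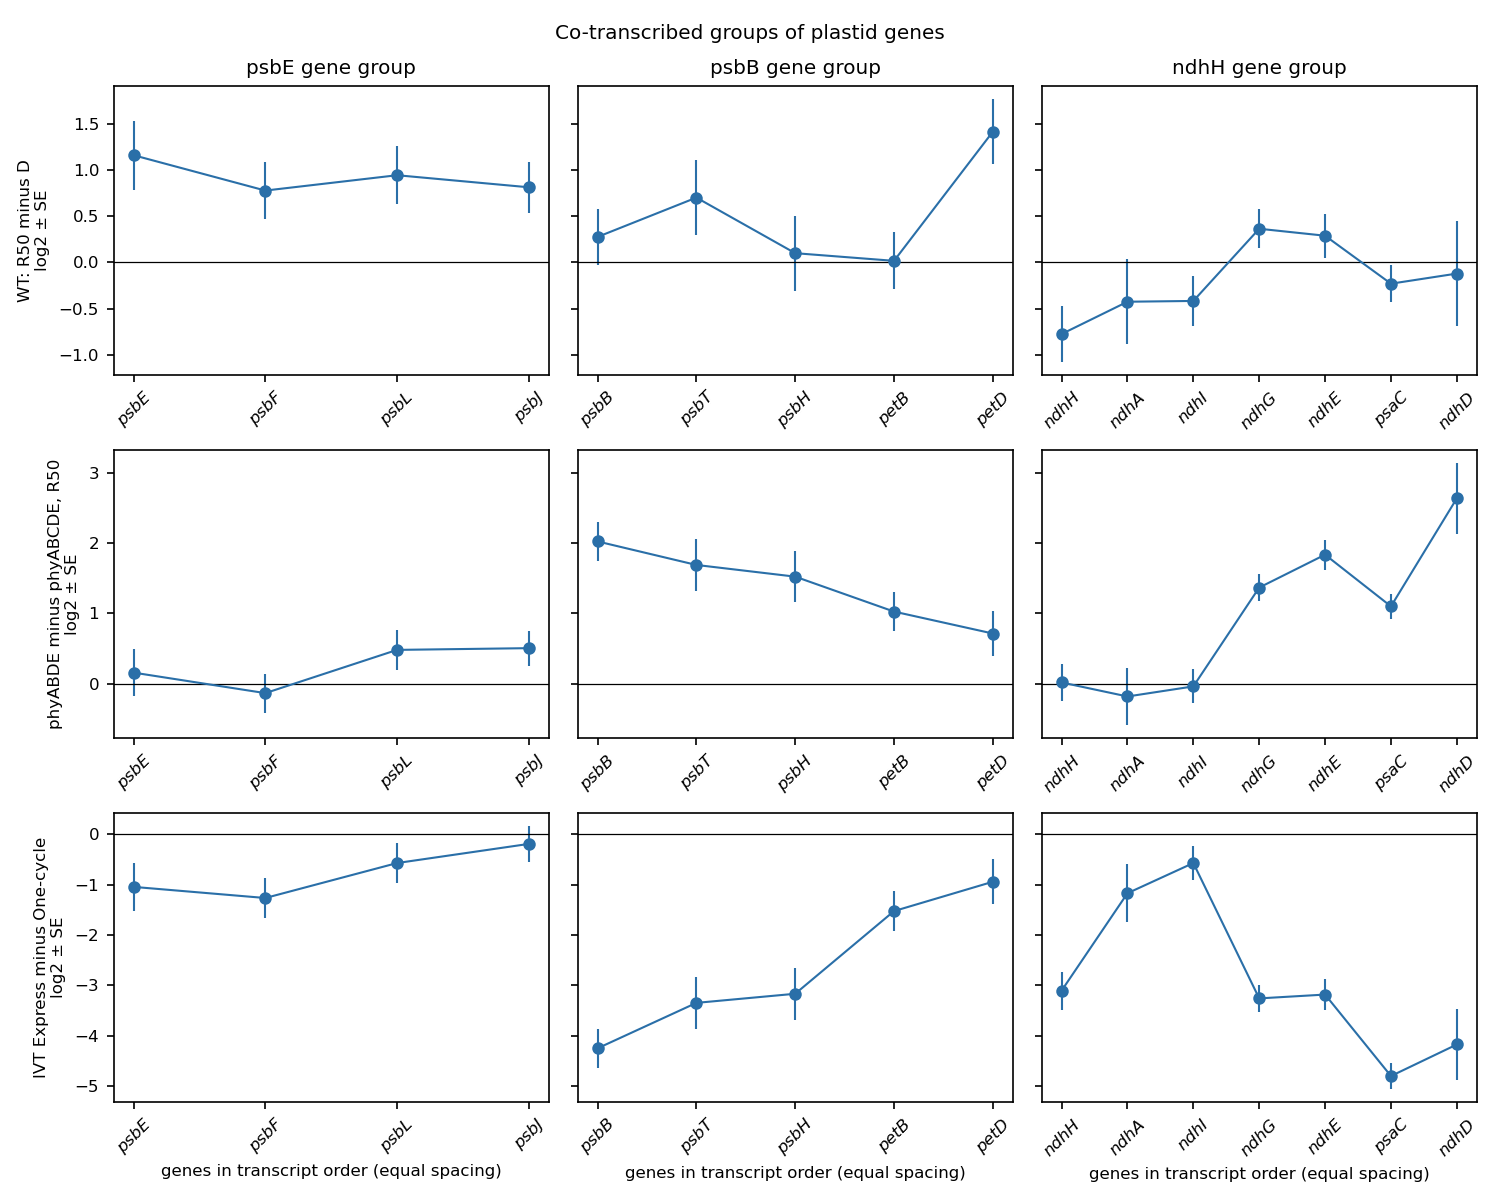
Log2 values (± SE) along 3 groups of co-transcribed plastid genes, in transcript order with equal spacing: the wild-type response to continuous red light (top), the difference between phyABDE and phyABCDE in continuous red light (middle), and the difference between wild-type dark replicate 1 (IVT Express) and the One-cycle dark arrays of an earlier study (bottom). In the psbE group all 4 wild-type values lie between 0.78 and 1.16, and in the ndhH group the mutant difference runs from -0.18 for ndhA to 2.63 for ndhD.

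Against dark wild type, through the single wild-type array of the same kit, no plastid gene was called in either mutant, where 0.805% of all probe sets were called for phyABDE and 3.6% for phyABCDE. The median was 0.35 for phyABDE, with 39 of 43 genes above 0 and 4 at an unadjusted p under 0.05, where 11.8% of all probe sets passed. For phyABCDE it was -0.09, with 18 genes above 0 and 2 at an unadjusted p under 0.05, where 17.2% of all probe sets passed, and the median was 0.35 without the low dark array. When the kit term was removed, all 4 dark wild-type arrays entered. Then 14 genes were called lower and 1 higher in phyABDE, and 26 lower in phyABCDE. The medians were -0.63 and -1.08, against -0.007 and -0.014 over all probe sets. The share of all probe sets called in that setting is not given here. These comparisons share the wild-type dark arrays.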

How the data were processed

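Per the submitters' processing notes, RMA, GCOS and limma were used; which step each served, and their versions, are not given in the sources used here. The authors deposited linear intensity values, and log2 of them was used here with no further normalization. After 64 control probe sets were left out, a linear model was fitted to 22746 of 22810 probe sets on all 22 arrays with lmFit and eBayes of limma 3.58.1 (R 4.3.3), with 8 group means and the labelling kit as terms, which left 13 residual degrees of freedom. Benjamini-Hochberg adjustment was made over all probe sets in each of 14 comparisons. The fit was tested on simulated data. Figures were drawn with matplotlib 3.10.9.

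Probe sets were named from the platform annotation, in which 13513 of them had 1 gene symbol, 503 several and 8730 of those tested none. The members and gene lists were chosen with earlier results of these data known. All members may be named; array values are given for the highest-reading gene of each complex and for the 3 largest fitted rises and falls in each response to continuous red light, and for further genes chosen after their values were seen. Of other lists at most the 3 highest-reading genes are named. A list of sigma factors had 0 measured genes. The titles call the replicates biological; whether seedlings were sown on separate days is not stated. Same-numbered D and R50 arrays of a mutant deviated together over all probe sets (correlations of 0.112 to 0.477). The values given for those responses come from the fit without pairing. Pairs entered only in an alternative with the replicate number as a block, which changed no member's call in those responses. The precision of an array comparison is limited by the number of arrays, and within groups arrays correlated at 0.978 or above.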

Additional observations from a re-analysis of the deposited data

Results flagged for a closer look

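In dark wild type, 13 of 44 values tested had 1 array far from the other 3. In all 13 it was D replicate 1, the array labelled with the other kit, as the lowest. For a single value, about 1 in 20 would be expected to stand out by chance. The 44 values were read on the same 4 arrays and are not independent, so their count cannot be set against that rate. They show again the 1 low array described above with the kit. The log2 values of that array were 8.89 for atpA, 6.81 for ndhD, 4.11 for ndhE, 4.16 for ndhG, 9.65 for petA, 10.99 for petB, 5.10 for petN, 3.90 for psaC, 8.70 for psaI, 4.70 for psbB, 7.07 for psbH, 10.18 for psbK and 3.42 for psbT. Only the dark wild-type group has 4 arrays, so no other group was examined in this way.

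The response to continuous red light differed between wild type and a mutant in 5 cases by the test of the difference itself in limma. It was lower in wild type than in phyABDE for psaC, by -0.95. It was higher in wild type than in phyABCDE for petD by 1.80, for psbE by 1.49, for psbJ by 1.37 and for petG by 0.96. The wild-type response was measured with another kit than that of the mutants and in an earlier study. The part of kit and study in these 5 differences was not tested. With the replicate number as a block only the petD difference kept its call.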

How the results depend on the processing

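Counts and medians were recomputed under the alternatives. A count of calls was labelled the same within 1.5 times of the main count. A median was labelled the same if it moved by less than 0.507, the pooled SD of the array medians. That limit is larger than several of the medians, so a median could change sign and still be labelled the same. By these limits 312 stayed the same, 37 were weaker, 13 stronger and 2 moved. A count of 0 in both fits was also labelled the same, so the comparisons without a call add to that total. Gene by gene, 1 of 6 calls in the wild-type response was kept in every alternative. Between the mutants in R50 it was 1 of 20. Even so 13 medians changed sign; with the kit term left out the wild-type response went from -0.05 to 0.43 and its difference from that of phyABDE from -0.38 to 0.0376, and the wild-type response was 0.0329 without D replicate 3. With the kit term left out the calls between the mutants went from 1 to 0 in D, from 20 to 4 in R50 and from 7 to 0 in DR2h, while those against dark wild type became 15 for phyABDE (median -0.63) and 26 for phyABCDE (median -1.08); psaC in the wild-type response minus that of phyABDE turned to 0.25 (adjusted p = 0.942). With only the compared arrays in the fit there were 11 calls in the wild-type response, 3 and 2 in its differences from phyABDE and phyABCDE, and 0 in D and 18 in DR2h between the mutants. With an offset of 16 before log2 these were 0 in D, 13 in R50 and 4 in DR2h, and with only the probe sets at or above the median level, which keeps 34 of the 43 genes, 2 in DR2h. With the replicate block there were 2 calls in the wild-type response, where rbcL lost its call, 3 and 2 in its differences from phyABDE (psaC not among them) and phyABCDE (petD among them), and 1 in D, 18 in R50 and 7 in DR2h between the mutants, where same numbers did not deviate together in D and R50 (correlations of -0.159 to 0.0605). Without both low phyABCDE arrays, chosen after seeing the data, there were 8 calls in the wild-type response minus that of phyABCDE and 0 between the mutants in D. Quantile normalization moved no count of calls by over 1.5 times. Shares of all probe sets are given for the main fit only, so counts under the alternatives have no such share beside them. Except where shown, the cause of these changes was not tested.

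Leaving out each array in turn gave 1 to 6 calls for the wild-type response, 0 to 1 for phyABDE in R50 (1 without R50 replicate 1), 0 to 3 and 1 to 10 for the wild-type response minus those of phyABDE and phyABCDE, 0 to 5 between the mutants in D (5 without phyABCDE replicate 2, 0 without phyABDE replicate 1 or 3), 7 to 16 in R50, 2 to 4 in DR2h and 16 to 17 for the kit. The single psaC call was absent without wild-type D replicate 3, R50 replicate 2, phyABDE D replicate 2 or phyABDE R50 replicate 2 or 3. Over all alternatives the median ran from -0.127 to 0.607 for wild type minus phyABCDE, from -0.597 to 0.0665 for phyABCDE in R50 and from 0.13 to 0.908 between the mutants in D. The comparisons with dark wild type could not be fitted without D replicate 1. No paired analysis was possible for the comparisons with dark wild type and the kit because the kits split the wild-type numbers. With 2 or 3 arrays a group, a lone remaining array was assumed to vary like the other groups.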
